A study of Mus musculus with 12 samples.

Results

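A group of 10 genes for secreted acute-phase proteins was examined in mouse liver. They were chosen by symbol as members of known families, with earlier results of these data known. They are the serum amyloid A genes Saa1, Saa2, Saa3 and Saa4, the orosomucoid genes Orm1, Orm2 and Orm3, Lcn2 for lipocalin 2, Hp for haptoglobin and Hpx for hemopexin. They are part of the 46078 genes in the count table, and all 10 passed the filter on low counts that left 13054 genes for testing. RNA-seq was made from the liver of 12 C57BL/6 mice (C57BL/6J in the study's methods) with diet-induced obesity, aged 21 weeks, 4 per group. In the VSG group the mice had vertical sleeve gastrectomy, an operation that removes most of the stomach. In the Sham-WM group they had sham surgery and then calorie restriction to match the weight of the VSG group, and in the Sham-Ad lib group sham surgery with free feeding. The study asked which hepatic changes after VSG go beyond those of equal weight loss. By the study's methods all mice were male, ate a high fat diet before and after surgery, received the same antibiotic and analgesic drugs around the operation and were culled on day 16 after surgery following 5 h without food. For the shams the methods list opening of the abdomen and handling of the stomach, whereas in VSG the stomach was cut and sutured.

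Acute-phase proteins are made mainly by hepatocytes and released into blood within hours of injury or infection. Interleukin-6 acting through STAT3, and interleukin-1 and tumour necrosis factor acting through NF-kB, are their best known inducers, together with transcription factors of the C/EBP family and glucocorticoids. Serum amyloid A and orosomucoid are among the strongest responders in the mouse, while haptoglobin and hemopexin are abundant at all times and rise more modestly. Some members are also made outside the hepatocyte, Saa3 by macrophages and adipocytes and Lcn2 by neutrophils, which store it in granules.

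The libraries held between 15122520 and 19384076 counts, and levels are given as TMM-normalised CPM (counts scaled to equal library size). Each library name carries an animal number that recurs in 1 sample title, which set its group, and libraries are named here by that number: 3F, 4F, 6F and 10F were Sham-Ad lib, 2F, 9F, 15F and 16F were Sham-WM, and 1F, 8F, 11F and 18F were VSG. A second label field pairs the titles with other library names. Grouped by that field, none of the 10 members passed edgeR's test in any contrast, and none had an unadjusted p under 0.05, so every group difference below rests on the first reading of the labels. Hepatocyte markers were abundant throughout, with a summed level of 10 genes between 88559 and 163634 CPM. The libraries of each group carry consecutive index numbers, so anything that followed these numbers cannot be told apart from treatment. Nothing in the sources used here pairs the mice, and p-values measure the spread among 4 mice per group. The edgeR p-values come from 1 fit of all 12 libraries, so the spread within the third group also enters each contrast.

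The members form 2 gene clusters and 3 single genes on mm10. The 4 Saa genes lie within 42.3 kb on chromosome 7 (chr7:46711998-46754313), and the 3 Orm genes within 21.3 kb on chromosome 4 (chr4:63344560-63365878). Lcn2 lies at chr2:32384633-32388252, Hp at chr8:109575128-109579172 and Hpx at chr7:105591613-105600137, the latter also on chromosome 7 but far from the Saa cluster. No other annotated gene overlaps any of the 10. In the count table they carry the Ensembl identifiers ENSMUSG00000074115 (Saa1), ENSMUSG00000057465 (Saa2), ENSMUSG00000040026 (Saa3), ENSMUSG00000040017 (Saa4), ENSMUSG00000039196 (Orm1), ENSMUSG00000061540 (Orm2), ENSMUSG00000028359 (Orm3), ENSMUSG00000026822 (Lcn2), ENSMUSG00000031722 (Hp) and ENSMUSG00000030895 (Hpx). The coding sequences of Saa1 and Saa2 are 95.1% identical, those of Orm1 and Orm2 89.9%, of Orm2 and Orm3 88.3% and of Orm1 and Orm3 86.4%, whereas Saa3 and Saa4 are 77.1% and 67.3% identical to Saa1. Despite this likeness, no 100-base window of the main Saa1 or Saa2 transcript occurs unchanged in another gene's transcript, and 6.95% of the windows of Orm1 and Orm2 are shared between these 2 genes. Counts of near-identical genes could still be split unevenly where reads carried mismatches, so the levels of Saa1 against Saa2 and of the 3 Orm genes are less certain than their sums.

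The proximal promoters are shown for 2 pairs of neighbouring copies, because the copies within a pair differ little in sequence. Each sequence is the 250 bases before the RefSeq transcription start (GRCm38.p6, the build of mm10), and capitals mark the letters TTGCNNAA on either strand, a short form of the site bound by C/EBP factors.
Saa1, chr7:46742981-46743230, minus strand: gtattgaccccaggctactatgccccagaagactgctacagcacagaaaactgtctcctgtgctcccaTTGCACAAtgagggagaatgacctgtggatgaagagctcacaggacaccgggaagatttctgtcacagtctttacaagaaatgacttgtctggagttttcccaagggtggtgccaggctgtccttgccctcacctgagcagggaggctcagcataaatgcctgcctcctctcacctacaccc
Saa2, chr7:46751583-46751832, plus strand: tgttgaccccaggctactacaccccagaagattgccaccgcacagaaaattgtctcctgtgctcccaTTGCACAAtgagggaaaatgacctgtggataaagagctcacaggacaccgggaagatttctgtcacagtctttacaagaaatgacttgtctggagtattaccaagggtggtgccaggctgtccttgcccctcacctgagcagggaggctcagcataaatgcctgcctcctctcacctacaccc
Orm2, chr4:63362199-63362448, plus strand: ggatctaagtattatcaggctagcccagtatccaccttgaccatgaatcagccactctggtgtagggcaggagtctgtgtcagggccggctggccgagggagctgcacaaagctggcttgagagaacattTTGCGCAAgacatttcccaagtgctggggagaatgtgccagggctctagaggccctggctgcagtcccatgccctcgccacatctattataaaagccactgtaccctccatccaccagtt
Orm3, chr4:63355908-63356157, plus strand: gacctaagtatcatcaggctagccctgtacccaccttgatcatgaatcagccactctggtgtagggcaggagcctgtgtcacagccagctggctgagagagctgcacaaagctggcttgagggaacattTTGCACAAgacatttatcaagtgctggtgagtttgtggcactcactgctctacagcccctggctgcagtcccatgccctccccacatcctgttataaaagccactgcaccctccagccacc

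The Saa1 and Saa2 promoters were 94.8% identical over the alignment, and those of Orm2 and Orm3 85.9%. RefSeq promoters were matched for 8 of the 10 members, Saa1, Saa2, Saa3, Saa4, Orm2, Orm3, Lcn2 and Hpx. The C/EBP letters occurred in all 8, against 9.56% of the 32851 promoters of the same length in the table. In Saa1 the match TTGCACAA covered bases -182 to -175 before the start, and in Saa2 the same letters covered -183 to -176. Orm2 carried TTGCGCAA at -120 to -113, and Orm3 TTGCACAA at -121 to -114. Lcn2 carried TTGCTCAA at -216 to -209, Hpx TTGCTGAA at -200 to -193 and Saa3 TTATGCAA, on the other strand, at -99 to -92, while Saa4 held 2 matches. None of the 8 held the letters GGGNNNTTC (an NF-kB form, in 11.8% of all promoters), CTGGGAA (an interleukin-6 response form, 9.10%) or TTCNNNGAA (a STAT form, 7.02%) in this window on either strand. These letters were chosen with the sequences in view, so the count of 8 beside 9.56% is a description and not a test of enrichment. The near-identical promoters of Saa1 and Saa2, and those of Orm2 and Orm3, are also not separate cases. A match or its lack says nothing about binding.

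All 10 members had the same order of group means, lowest in Sham-WM and highest in VSG. Together they took between 0.679% and 0.967% of all counts in the Sham-WM libraries, between 0.678% and 3.29% in Sham-Ad lib and between 1.31% and 7.80% in VSG. The lowest VSG library was 18F for 10 of 10 members and the lowest Sham-Ad lib library was 3F for 10 of 10, while 1F was the highest VSG library for 8. In Sham-Ad lib the highest library was 10F for 7 members and 4F for 3, and in Sham-WM it was 2F for 7.

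**Figure D1:**
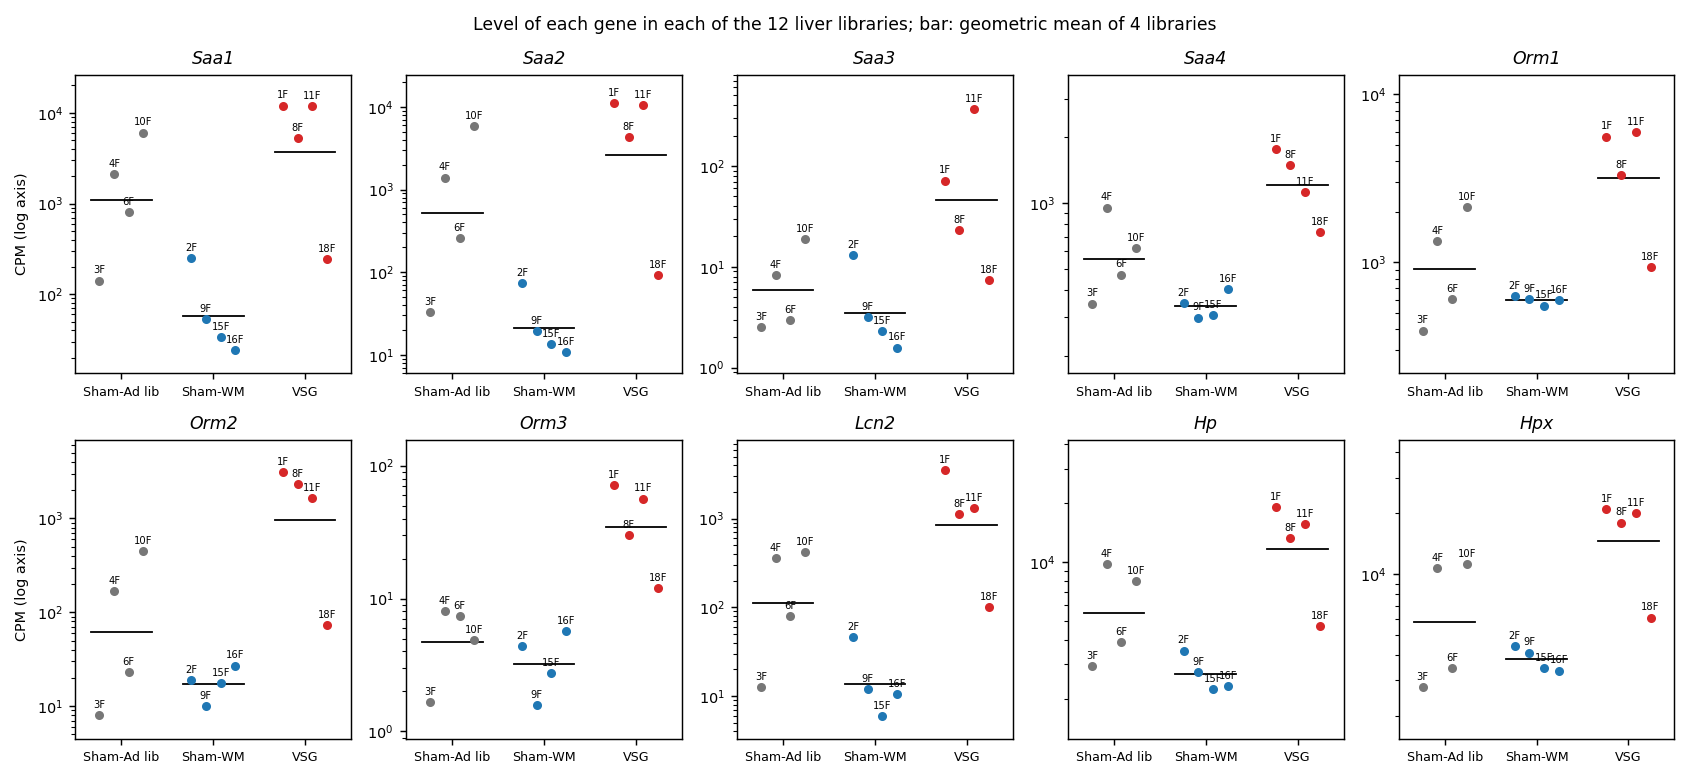
Level of each of the 10 genes (CPM, log axis) in the 12 liver libraries by group, 1 point per mouse labelled with its animal number, with a bar at the geometric mean. For every gene VSG library 18F lies below the other VSG libraries and Sham-Ad lib library 3F below the others of its group, and the Sham-WM points lie closest together for Orm1, from 553 to 630.4 CPM.

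Against the Sham-WM group, all 10 members rose in VSG livers by edgeR's quasi-likelihood test at an adjusted p under 0.05, beside 15.0% of all genes tested that rose. Their median log2 fold change was 4.05, beside 0.03 over all genes, and ranged from 1.91 for Saa4 to 7.81 for Saa2. For 8 of the 10 there was no overlap between the 4 VSG and the 4 Sham-WM libraries, the VSG libraries being higher, beside 14.3% of all genes, and DESeq2 also called all 10, beside 13.5%. Leaving out any single library kept all 10 calls. The study's methods describe removal of batch variation with the package RUVSeq, at k = 2, without naming the type of factor. RUVs factors are estimated from differences among libraries of the same group. With 2 of them, none of the 10 passed edgeR's test and the log2 fold changes fell to between -0.03 and 1.75. In that fit 2 had an unadjusted p under 0.05, beside 19.1% of all genes in either direction. RUVr factors are estimated from the residuals of a first fit. With 2 RUVr factors edgeR called all 10 higher, at log2 fold changes from 1.84 to 7.37, beside 21.9% of all genes that rose. In whole-liver RNA, a change in the RNA per cell and a change in the share of a cell type cannot be told apart.

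Against Sham-Ad lib the same livers gave fewer calls. In VSG 1 member, Orm3, was higher at an adjusted p under 0.05, beside 0.467% of all genes tested that rose and 0.283% that fell, and its groups were the only ones of the 10 without overlap, beside 4.87% of all genes. All 10 log2 fold changes were above 0, from 1.10 for Saa4 and Hp to 3.85 for Saa3, and 8 had an unadjusted p under 0.05, beside 24.1% of all genes in either direction. With 2 RUVs factors the values ran from -2.85 to 1.53 and none was called by edgeR. In that fit 3 had an unadjusted p under 0.05, beside 9.05% of all genes. Of these, Saa1 (-2.34) and Saa2 (-2.85) were lower in VSG and Orm3 (1.53) was higher. DESeq2 called 5 members (Saa3, Saa4, Orm1, Orm2 and Orm3), beside 5.24% of its genes that rose. Without VSG 18F edgeR called 7, namely Saa3, Saa4, Orm1, Orm2, Orm3, Hp and Hpx, beside 5.53% of all genes that rose. Without Sham-Ad lib 4F it called Saa4 and Orm3, beside 5.36%.

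In Sham-WM against Sham-Ad lib, Saa1 and Saa2 were lower at an adjusted p under 0.05, beside 3.45% of all genes that fell and 3.53% that rose. All 10 log2 fold changes were below 0, from -6.01 for Saa2 to -0.61 for Orm3 (from -3.68 to 0.45 with 2 RUVs factors), but the groups overlapped for each member, beside 8.40% of all genes whose Sham-WM libraries all lay lower. DESeq2 called 5 members lower (Saa1, Saa2, Orm2, Lcn2 and Hp), beside 5.39% of its genes that fell. Both comparisons with Sham-Ad lib use the same 4 control mice, whose own spread enters both.

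**Figure D2:**
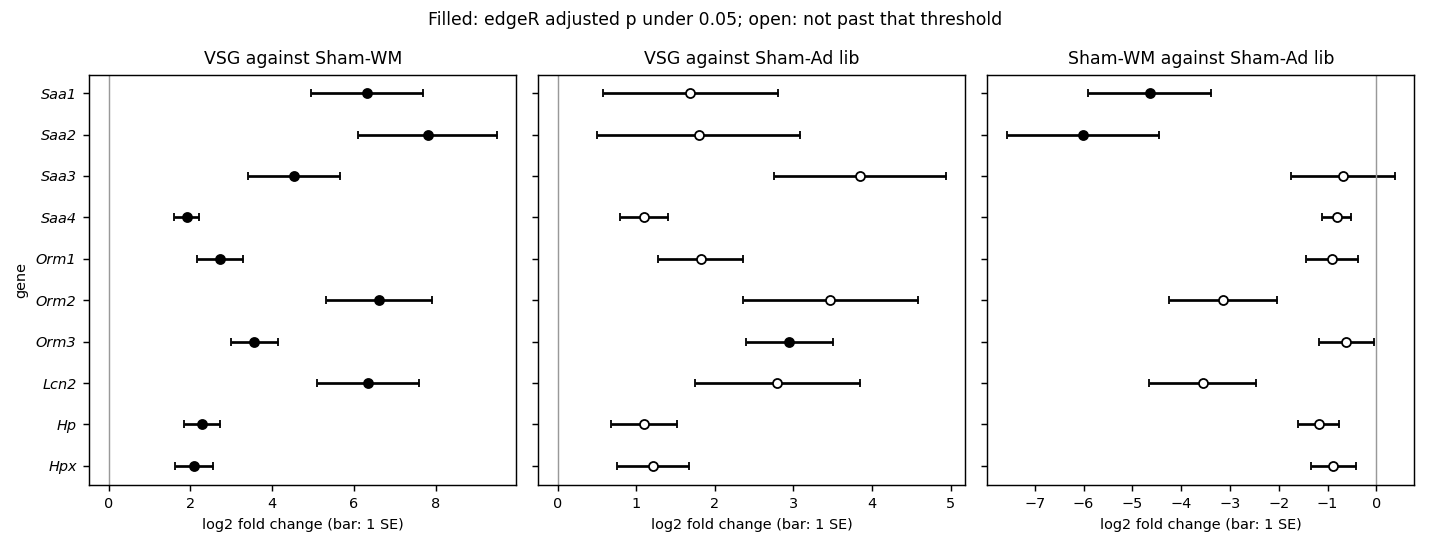
Log2 fold change of the 10 genes by edgeR in each contrast, with bars of 1 SE and filled points for an adjusted p under 0.05. All 10 points are filled and lie between 1.91 and 7.81 for VSG against Sham-WM, while 1 is filled for VSG against Sham-Ad lib and 2 for Sham-WM against Sham-Ad lib.

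Saa1 and Saa2 encode the circulating acute-phase forms of serum amyloid A, which travel on high density lipoprotein. Saa1 stood at 11973, 5208, 11829.5 and 245 CPM in VSG libraries 1F, 8F, 11F and 18F, at 252, 53.6, 33.7 and 24.2 CPM in Sham-WM libraries 2F, 9F, 15F and 16F, and at 141, 2127, 798 and 6026 CPM in Sham-Ad lib libraries 3F, 4F, 6F and 10F. VSG 1F, 8F and 11F lay far above every Sham-WM library, whereas 18F fell just under the highest of them, so these groups overlapped. Saa1 rose in VSG against Sham-WM by a log2 fold change of 6.33 ± 1.37 (SE, edgeR adjusted p = 0.00603) and was lower in Sham-WM than in Sham-Ad lib, with -4.64 ± 1.26 (adjusted p = 0.0427). Against Sham-Ad lib the VSG value was 1.69 ± 1.11 (adjusted p = 0.365), and Sham-Ad lib 10F exceeded VSG 8F as well as 18F.

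Saa2, the neighbour of Saa1 on the opposite strand, followed it closely. Its levels were 11203, 4327, 10489.7 and 92.6 CPM in VSG 1F, 8F, 11F and 18F, 73.2, 19.3, 13.4 and 10.7 CPM in Sham-WM 2F, 9F, 15F and 16F, and 32.9, 1392, 260.0 and 5851 CPM in Sham-Ad lib 3F, 4F, 6F and 10F. Every VSG library was above every Sham-WM library, with 18F and 2F the closest, while the Sham-Ad lib libraries spanned both groups, a 178-fold range within 1 treatment. The log2 fold change was 7.81 ± 1.69 in VSG against Sham-WM (SE, edgeR adjusted p = 0.00611), -6.01 ± 1.56 in Sham-WM against Sham-Ad lib (adjusted p = 0.0352) and 1.79 ± 1.29 in VSG against Sham-Ad lib (adjusted p = 0.406). The SD of log2 CPM within a group reached 3.27 in VSG and 3.22 in Sham-Ad lib, larger than in 99.99% and 99.98% of all genes tested, where the median SD was 0.301 and 0.202.

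The fall of Saa1 and Saa2 in Sham-WM against Sham-Ad lib was called with all 12 libraries but depended on several of them. Without Sham-Ad lib 10F the log2 fold change was -3.50 for Saa1 and -4.27 for Saa2 (edgeR adjusted p = 0.119 and 0.100). The calls of both were also lost without 4F, 9F, 15F or 16F, at adjusted p between 0.0512 and 0.127, and that of Saa1 without 6F, 1F or 8F, at adjusted p between 0.0509 and 0.0560. Without 3F, 2F, 11F or 18F both calls held.

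Saa3, a local form made by macrophages and adipocytes as well as in liver, was the least abundant of the 4 per kb of transcript in each group. It stood at 71.5, 23.3, 367 and 7.34 CPM in VSG 1F, 8F, 11F and 18F, at 12.99, 3.17, 2.30 and 1.58 CPM in Sham-WM 2F, 9F, 15F and 16F, and at 2.51, 8.26, 2.98 and 18.9 CPM in Sham-Ad lib 3F, 4F, 6F and 10F. VSG 11F held the highest value, 5.13 times that of 1F, and VSG 18F lay below Sham-WM 2F, so the groups overlapped. Saa3 rose in VSG against Sham-WM by 4.54 ± 1.14 on the log2 scale (SE, edgeR adjusted p = 0.0121), with 3.85 ± 1.09 in VSG against Sham-Ad lib (adjusted p = 0.0749, and 0.0145 by DESeq2) and -0.69 ± 1.07 in Sham-WM against Sham-Ad lib (adjusted p = 0.775). Without VSG 11F the value in VSG against Sham-WM was 2.76 and still called (adjusted p = 0.0394). Without Sham-Ad lib 10F the value in Sham-WM against Sham-Ad lib was 0.12 (adjusted p = 0.977).

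Saa4, the constitutive form of serum amyloid A, had the smallest change of the 4 in VSG against Sham-WM. It stood at 1757, 1493, 1124 and 735 CPM in VSG 1F, 8F, 11F and 18F, at 348, 299, 308 and 403 CPM in Sham-WM 2F, 9F, 15F and 16F, and at 346, 953, 469.7 and 619 CPM in Sham-Ad lib 3F, 4F, 6F and 10F. The lowest VSG library was above the highest Sham-WM library and below Sham-Ad lib 4F. The log2 fold change was 1.91 ± 0.31 in VSG against Sham-WM (SE, edgeR adjusted p = 0.00152), 1.10 ± 0.30 in VSG against Sham-Ad lib (adjusted p = 0.0696, and 0.00849 by DESeq2) and -0.81 ± 0.30 in Sham-WM against Sham-Ad lib (adjusted p = 0.127).

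The orosomucoids, also called alpha-1-acid glycoproteins, are small plasma carriers that bind drugs and lipids and damp inflammation. Orm1 stood at 5606, 3311, 5954 and 940.0 CPM in VSG 1F, 8F, 11F and 18F, at 630.4, 605, 553 and 595 CPM in Sham-WM 2F, 9F, 15F and 16F, and at 393, 1343, 605 and 2138 CPM in Sham-Ad lib 3F, 4F, 6F and 10F. All VSG libraries lay above the Sham-WM libraries, which spanned only a 1.14-fold range, while those of Sham-Ad lib spanned 5.43-fold and lay on both sides of Sham-WM. Its SD of log2 CPM among Sham-WM mice was 0.08, smaller than in most genes (9.94% of genes had a smaller one), against 1.24 among VSG mice, larger than in 98.5% of genes. Orm1 rose in VSG against Sham-WM by 2.73 ± 0.56 on the log2 scale (SE, edgeR adjusted p = 0.00462), with 1.82 ± 0.54 in VSG against Sham-Ad lib (adjusted p = 0.0828, and 0.0200 by DESeq2) and -0.91 ± 0.53 in Sham-WM against Sham-Ad lib (adjusted p = 0.351).

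Orm2 had the largest fold change of the 3 in each contrast. It stood at 3131, 2333, 1637 and 72.6 CPM in VSG 1F, 8F, 11F and 18F, at 18.9, 9.98, 17.7 and 27.0 CPM in Sham-WM 2F, 9F, 15F and 16F, and at 8.09, 167, 23.2 and 449 CPM in Sham-Ad lib 3F, 4F, 6F and 10F. Here 18F was 43.1 times below 1F but still above every Sham-WM library, and Sham-Ad lib 4F and 10F exceeded it. The log2 fold change was 6.61 ± 1.30 in VSG against Sham-WM (SE, edgeR adjusted p = 0.00365), 3.47 ± 1.11 in VSG against Sham-Ad lib (adjusted p = 0.0958, and 0.0313 by DESeq2) and -3.14 ± 1.11 in Sham-WM against Sham-Ad lib (adjusted p = 0.110, and 0.0457 by DESeq2).

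Orm3, which lies between the other two, had the lowest level of the orosomucoids per kb and the only call against Sham-Ad lib in VSG. It stood at 71.1, 30.1, 56.5 and 12.002 CPM in VSG 1F, 8F, 11F and 18F, at 4.38, 1.59, 2.75 and 5.68 CPM in Sham-WM 2F, 9F, 15F and 16F, and at 1.67, 8.00, 7.36 and 4.89 CPM in Sham-Ad lib 3F, 4F, 6F and 10F. Every VSG library was above all 8 sham libraries. The log2 fold change was 2.95 ± 0.55 in VSG against Sham-Ad lib (SE, edgeR adjusted p = 0.0442, and 0.000574 by DESeq2), 3.56 ± 0.57 in VSG against Sham-WM (adjusted p = 0.00150) and -0.61 ± 0.57 in Sham-WM against Sham-Ad lib (adjusted p = 0.589). The call against Sham-Ad lib held without 4F, 8F or 18F and was lost without any of the other 9 libraries, at adjusted p between 0.0535 and 0.155, with the log2 fold change between 2.58 and 3.12.

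Lipocalin 2 binds bacterial siderophores and so keeps iron from microbes, and it is made by stimulated hepatocytes and stored by neutrophils. Lcn2 stood at 3527, 1126, 1316 and 99.8 CPM in VSG 1F, 8F, 11F and 18F, at 46.0, 11.98, 5.92 and 10.5 CPM in Sham-WM 2F, 9F, 15F and 16F, and at 12.6, 361, 79.7 and 422 CPM in Sham-Ad lib 3F, 4F, 6F and 10F. The VSG libraries all exceeded those of Sham-WM, with 18F and 2F nearest to each other, whereas 18F lay below Sham-Ad lib 4F and 10F. The log2 fold change was 6.35 ± 1.25 in VSG against Sham-WM (SE, edgeR adjusted p = 0.00367), 2.79 ± 1.05 in VSG against Sham-Ad lib (adjusted p = 0.137) and -3.56 ± 1.10 in Sham-WM against Sham-Ad lib (adjusted p = 0.0701, and 0.0155 by DESeq2).

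Most listed markers of neutrophils and macrophages were also higher in VSG than in Sham-WM. Of 13 listed neutrophil markers 11 were tested, and 11 rose in VSG against Sham-WM, beside 15.0% of all genes. Among them Ltf, Mpo, Ngp and Elane reached 10 counts in no sham library but Sham-Ad lib 4F, and Camp in none. These genes passed the filter on low counts through the VSG libraries, so their rise was largely fixed in advance. The share of this list that rose is therefore not a test. The 13 markers summed to 1183, 525, 153 and 41.6 CPM in VSG 1F, 8F, 11F and 18F and to between 3.23 and 4.54 CPM in Sham-WM. In Sham-Ad lib 3F, 4F, 6F and 10F the sums were 2.57, 24.5, 1.68 and 3.70 CPM. Against Sham-Ad lib 9 of the 11 tested markers rose in VSG, beside 0.467% of all genes, with the same limit from the filter. S100a8, a granulocyte calcium-binding protein, was measured at 260 CPM in 1F and 7.85 CPM in 18F, against at most 4.13 CPM in a sham library. Ly6g, a defining neutrophil marker, was too low for the test. It had no count in any sham library and 44, 15, 0 and 1 counts in VSG 1F, 8F, 11F and 18F. Camp had no count in Sham-WM. In Sham-Ad lib the library highest in these markers, 4F, was also the highest for Saa4, Orm3 and Hp, while 10F, at 3.70 CPM of markers, was the highest for the other 7 members. In VSG 1F was highest in the markers and for 8 members, and 11F, with fewer markers than 8F, exceeded 8F for 8 members and lay below it for Saa4 and Orm2. The part of neutrophils in the levels of Lcn2 and of the other members was not tested. Without 1F and 8F, the 2 libraries highest in these markers, edgeR called 9 of the 10 members higher in VSG than in Sham-WM, all but Hpx (adjusted p = 0.0539), beside 7.19% of all genes, and Orm3 was no longer called against Sham-Ad lib (adjusted p = 0.157). The VSG libraries kept, 11F and 18F, still held 153 and 41.6 CPM of markers, above every sham library. This fit therefore does not test the part of neutrophils.

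**Figure D3:**
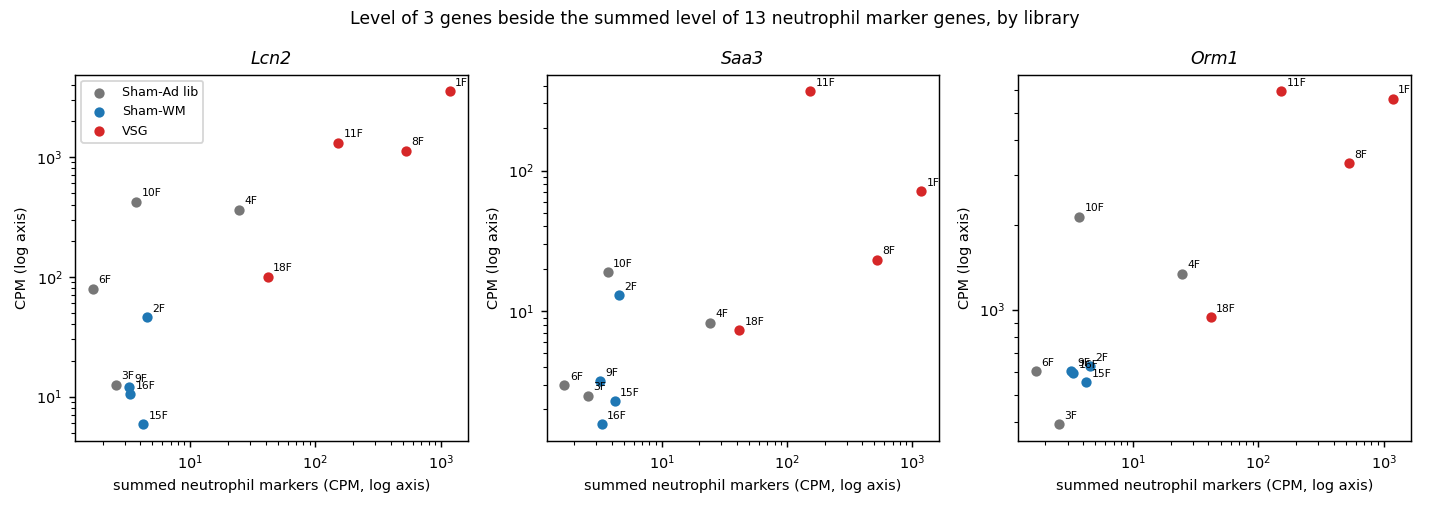
Level of Lcn2, Saa3 and Orm1 (CPM, log axis) beside the summed CPM of 13 neutrophil marker genes (log axis), 1 point per liver library coloured by group. VSG libraries spread from 41.6 to 1183 CPM of markers, and within Sham-Ad lib 4F has 24.5 CPM of markers with 361 CPM of Lcn2 and 10F 3.70 CPM with 422 CPM.

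Macrophage lists moved in the same livers. Beside 15.0% of all genes, 7 of 8 Kupffer cell markers rose in VSG against Sham-WM. Their summed level was 589 to 1457 CPM in VSG, 196 to 406 CPM in Sham-WM and 295 to 641 CPM in Sham-Ad lib. Of 10 markers of recruited macrophages 6 rose, beside the same 15.0%, with sums of 181 to 698, 59.7 to 99.2 and 62.9 to 211 CPM. Against Sham-Ad lib 3 of the 8 Kupffer cell markers and 1 of the 10 recruited macrophage markers rose in VSG, beside 0.467% of all genes. In both lists 18F was the lowest and 1F the highest VSG library, as for most members. Of 10 hepatocyte markers 2 fell in VSG against Sham-WM, Alb and Cps1, with log2 fold changes of -0.73 ± 0.22 and -0.83 ± 0.22 (SE, edgeR adjusted p = 0.0294 and 0.0174), beside 11.9% of all genes that fell, and 4 of the 10 had a value above 0. Adipocyte markers summed to at most 39.1 CPM in any library, Lep had no count in any, and of the 3 tested Cfd was lower in both VSG and Sham-WM than in Sham-Ad lib, while the 5 tested cholangiocyte markers gave no call (led by Spp1 at 0.76 ± 0.30 SE, edgeR adjusted p = 0.0782). The part of these cells in the members' levels was not tested.

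Haptoglobin binds free haemoglobin and hemopexin binds free haem, and both are cleared by the liver or its macrophages. Hp stood at 19102, 13183, 15656 and 4688 CPM in VSG 1F, 8F, 11F and 18F, at 3523, 2728, 2252 and 2332 CPM in Sham-WM 2F, 9F, 15F and 16F, and at 2951, 9717, 3902 and 8019.5 CPM in Sham-Ad lib 3F, 4F, 6F and 10F. The VSG libraries all lay above those of Sham-WM, and 18F below Sham-Ad lib 4F and 10F. Hp rose in VSG against Sham-WM by 2.28 ± 0.44 on the log2 scale (SE, edgeR adjusted p = 0.00317), with 1.10 ± 0.42 in VSG against Sham-Ad lib (adjusted p = 0.141) and -1.18 ± 0.42 in Sham-WM against Sham-Ad lib (adjusted p = 0.114, and 0.0263 by DESeq2).

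Within VSG, Hpx ranked the libraries as Hp did. It stood at 20984, 18037, 20075 and 6125 CPM in VSG 1F, 8F, 11F and 18F, at 4426, 4108, 3435 and 3349.9 CPM in Sham-WM 2F, 9F, 15F and 16F, and at 2779, 10735, 3449.6 and 11253 CPM in Sham-Ad lib 3F, 4F, 6F and 10F. VSG 1F, 8F and 11F lay within 1.16-fold of each other and 18F far below them, yet above all of Sham-WM. The log2 fold change was 2.09 ± 0.47 in VSG against Sham-WM (SE, edgeR adjusted p = 0.00719), 1.21 ± 0.46 in VSG against Sham-Ad lib (adjusted p = 0.138) and -0.88 ± 0.45 in Sham-WM against Sham-Ad lib (adjusted p = 0.285).

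Per kb of transcript, the order of the members' mean levels differed between groups, though most neighbours in the order overlapped. With the exon union as length, the VSG means ran from Hpx (10877.5 CPM per kb) and Hp (8193) through Orm1 (5100.4), Saa1 (2951), Saa2 (2593) and Orm2 (2314) to Saa4 (609.9), Lcn2 (578), Orm3 (54.9) and Saa3 (45.0). None of the 9 neighbouring pairs in this order lay apart by their mean ± 1 SD. In Sham-WM the same order held for Hpx (2555), Hp (1687) and Orm1 (769), but Saa4 (162) stood above Saa1 (36.7), and Saa2 (11.6) below Orm2 (23.7). There 4 of the 9 neighbouring pairs lay apart, namely the steps from Hpx to Hp, Orm1, Saa4 and Saa1, and from Saa1 downwards neighbours overlapped. The exon union of Saa1, Saa2, Saa3 and Lcn2 includes retained introns. With the length of the principal transcript, a choice made after the data were seen, Saa1 led in VSG at 12009.5 CPM per kb, before Hpx (10877.5), Saa2 (10012) and Hp (9782). In Sham-WM this length put Saa2 (44.7) above Orm2 (23.7) and Saa1 (149) just below Saa4 (162). These places in the order therefore depend on the length used, and the overlap of neighbours was judged with the exon union only.

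Ratios within a library do not depend on how libraries are scaled, and 4 were compared between groups in 12 tests. The Orm2/Orm1 ratio of counts was 0.558, 0.705, 0.275 and 0.0772 in VSG 1F, 8F, 11F and 18F and between 0.0165 and 0.0454 in Sham-WM, so the groups lay apart. The difference in mean log2 ratio was 3.37 (two-sided exact permutation p = 0.0286, the smallest that 4 against 4 allows, and 0.114 adjusted over the 12 tests). The Saa3/Saa1 ratio was higher in each Sham-WM library (0.0517 to 0.0688) than in any other library, the differences of mean log2 ratio being -2.28 for VSG minus Sham-WM and 3.51 for Sham-WM minus Sham-Ad lib (exact permutation p = 0.0286 and adjusted p = 0.114 for both). Saa2/Saa1 lay between 0.831 and 0.936 in VSG 1F, 8F and 11F, at 0.379 in 18F, between 0.291 and 0.443 in Sham-WM, and at 0.233, 0.655, 0.326 and 0.971 in Sham-Ad lib 3F, 4F, 6F and 10F. The 4 libraries with most Saa1 (1F, 8F, 11F and 10F) had the 4 highest ratios, but the VSG and Sham-WM groups overlapped (difference 0.95, exact permutation p = 0.0857, adjusted p = 0.196). Hp/Hpx stayed between 0.656 and 1.13 in all libraries. None of the 12 exact tests passed an adjusted p of 0.05, and 3 had an unadjusted p under 0.05.

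**Figure D4:**
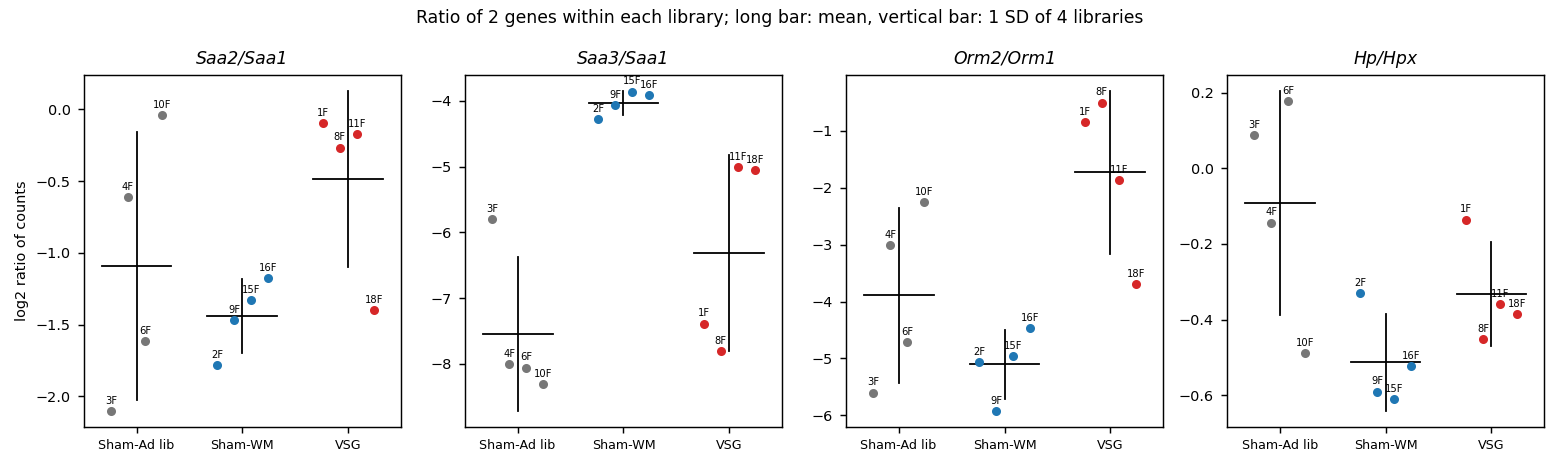
Log2 ratio of the counts of 2 genes in each of the 12 libraries by group, with the mean and 1 SD of 4 libraries. Orm2/Orm1 lies apart between VSG (mean -1.73) and Sham-WM (-5.10), and Saa3/Saa1 is highest in Sham-WM (-4.03).

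Among the members, profiles over the 12 libraries differed in size of swing. The likeness measure was the root-mean-square difference of log2 CPM after each gene was centred on its mean. Hp and Hpx were closest (0.25), followed by Orm1 and Hpx (0.35), Saa4 and Hp (0.36) and Saa4 and Hpx (0.41), while Saa1 and Saa2 differed by 0.70 and Saa1 and Lcn2 by 0.80. Of non-member genes, the nearest to Hp was Lrg1, a leucine-rich acute-phase glycoprotein (0.20), then Fgl1 (0.28) and P2ry12 (0.34). The nearest to Hpx were Fgl1 (0.24), Lrg1 (0.25) and Apcs (0.31), and the nearest to Orm1 were Apcs (0.35), Fgl1 (0.40) and Spic (0.52). Saa1 was nearest to the metallothioneins Mt1 (1.34) and Mt2 (1.47) and to Prtn3 (1.59), beside an own deviation of 3.16, Lcn2 to Prtn3 (1.11), Mt1 (1.35) and Ighg2b (1.40), and Saa3 to Iglv1 (1.16), Iglc1 (1.26) and Cd300e (1.27). These distances are over 12 libraries that share the group differences and are descriptions without a test.

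Other acute-phase genes were measured in the same fit. Of 21 on the list, 14 rose in VSG against Sham-WM, beside 15.0% of all genes, with a median log2 fold change of 0.99 beside 0.03 over all genes. The 4 largest were Cd14, a lipopolysaccharide co-receptor (4.04 ± 0.67 SE, edgeR adjusted p = 0.00173), Il1rn, the interleukin-1 receptor antagonist (3.56 ± 0.46, adjusted p = 0.000413), Fgl1 (2.34 ± 0.46, adjusted p = 0.00355) and Lbp, which carries lipopolysaccharide (2.24 ± 0.39, adjusted p = 0.00205). Cd14 also rose against Sham-Ad lib (3.42 ± 0.64, adjusted p = 0.0442), and Il1rn fell in Sham-WM against Sham-Ad lib (-2.31 ± 0.45, adjusted p = 0.00922). Of 12 negative acute-phase proteins, which are known to fall in the response, 1 fell in VSG against Sham-WM (Alb, given above) beside 11.9% of all genes, and 2 rose, beside 15.0%, namely Trf for transferrin (1.18 ± 0.31, adjusted p = 0.0140) and Fetub (0.86 ± 0.20, adjusted p = 0.00759).

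Genes upstream of the members were measured as well, and their counts stand beside 15.0% of all genes that rose and 11.9% that fell in VSG against Sham-WM. Of 8 inducing cytokines only Il1b and 1 other had counts enough for the test, and Il6 had at most 2 counts in any library. Il1b rose in VSG against Sham-WM (2.91 ± 0.65 SE, edgeR adjusted p = 0.00703), from 0.708 ± 0.506 to 5.43 ± 2.90 CPM (SD, n = 4). Of 16 tested receptor and signalling genes 6 rose and 1 fell, led by Tlr2 (2.79 ± 0.47, adjusted p = 0.00191), Socs3, the feedback inhibitor of STAT3 signalling (1.78 ± 0.58, adjusted p = 0.0365), Il1r1 (1.49 ± 0.33, adjusted p = 0.00664) and Myd88 (0.95 ± 0.19, adjusted p = 0.00438). Of 15 transcription factors and regulators 5 rose and 2 fell, a share of falls near that of all genes, the largest changes being in Nfkbiz (1.86 ± 0.45, adjusted p = 0.0105), Cebpd (1.64 ± 0.41, adjusted p = 0.0125), Relb (1.34 ± 0.31, adjusted p = 0.00824) and Nfkbia, the inhibitor of NF-kB (1.03 ± 0.15, adjusted p = 0.00107). Of 13 tested partners and receptors of the members 5 rose, among them Cd163, the haptoglobin-haemoglobin receptor (1.42 ± 0.31, adjusted p = 0.00612), Hmox1, which breaks down haem (1.78 ± 0.38, adjusted p = 0.00579), and Fpr2, a receptor for serum amyloid A (3.53 ± 0.80, adjusted p = 0.00769).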

How the data were processed

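Liver RNA-seq counts were analysed for 12 mice, 4 per group. Per the study's methods, poly(A) RNA was prepared as directional libraries and sequenced as paired reads, and alignment by the authors was to mm10, using TopHat2 2.1.1, with featureCounts for the counting. The deposited values are whole-number counts per Ensembl gene, neither normalised nor corrected. The annotation and strand setting of the counting were not given in the sources used here. Symbols came from a gene table that matched 45143 of 46078 identifiers, and positions from GENCODE M21.

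Genes were filtered with filterByExpr (minimum count 10, minimum total 15). Group means were compared with edgeR 4.0.16 (R 4.3.3) using TMM factors, the quasi-likelihood test and Benjamini-Hochberg adjustment over all 13054 genes, at 0.05. Log2 CPM used a prior count of 2 and ratios a pseudocount of 0.5 counts. The exact permutation test used scipy 1.17.1, and alignments Biopython 1.88. The methods were tested on simulated data. The members and gene lists were chosen with earlier results of these data known. All members were named, with up to 4 genes per list called in any contrast with the largest change in VSG against Sham-WM, or the 2 most abundant where none was called, and the 3 nearest genes to 6 members. Other genes and libraries in the text were chosen after their values were seen. Alternatives were DESeq2 1.42.0 and its size factors, upper quartile factors, other filters, fits of 2 groups, 2 RUVs or RUVr factors, the second label field and leaving out libraries. The study's methods name RUVSeq with k = 2 for removing batch variation. That package was not used here, and its RUVs and RUVr methods were written out from their definitions. SEs were the log2 fold change divided by the square root of the quasi-likelihood F. Library totals ran from 15122520 to 19384076 counts. The result of 1 marker list is not reported here.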

Additional observations from a re-analysis of the deposited data

Results flagged for a closer look

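One value stood apart from its group by Dixon's criterion. Hpx in VSG library 18F lay below the other 3 VSG libraries by 0.877 of the group's whole range of log2 CPM, above the critical value for 4 samples. In all, 30 groups of 4 libraries were tested, of which chance flags about 1 in 20.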

How the results depend on the processing

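With all libraries edgeR called 98 genes and 1 member in VSG against Sham-Ad lib, 912 and 2 in Sham-WM against Sham-Ad lib, and 3509 and 10 in VSG against Sham-WM. In VSG against Sham-Ad lib the counts of genes and members were 3031 and 8 with 2 RUVr factors, 8 and 0 with 2 RUVs factors, 1229 and 5 by DESeq2, 628 and 5 with no filter, and 1453 and 7 without 4F and 18F. They were 0 and 0 by edgeR with at least 10 counts in every library, with only the 2 groups compared, and without 1F and 8F, where 2755, 2523 and 2546 genes and 8, 8 and 3 members had an unadjusted p under 0.05. In Sham-WM against Sham-Ad lib they were 2162 and 5 with RUVr, 1724 and 5 with RUVs and 1435 and 5 by DESeq2, with 1399 genes when only these groups were fitted and 1 member without 1F and 8F. In VSG against Sham-WM they were 5495 genes and 10 members with RUVr, 1759 and 9 without 1F and 8F, and 524 and 0 with RUVs. Leaving out 1 library at a time gave 0 to 1089 genes and 0 to 7 members in VSG against Sham-Ad lib (0 genes without 6F, 1089 and 7 without 18F), 424 to 1311 and 0 to 3 in Sham-WM against Sham-Ad lib, and 2196 to 3868 and 10 in VSG against Sham-WM.

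Grouping by the second label field gave 0 genes and 0 members by edgeR in all contrasts, with 465, 715 and 158 genes at an unadjusted p under 0.05, in the order of contrasts given first. In VSG against Sham-WM the sign turned for Saa4 (-0.013) and Hpx (-0.082) under that field and for Saa3 (-0.028) with RUVs. Of 230 alternative values each, the sign turned in 10 for VSG against Sham-Ad lib and in 5 for Sham-WM against Sham-Ad lib. The cause was not tested. The alternatives without 1F and 8F and with another transcript length were chosen after seeing the data. All 168 alternatives of the ratios stayed on the same side of the threshold, which 4 against 4 libraries could not pass alone after adjustment. No paired analysis was possible because the groups share no animal numbers. With 4 mice per group, low genes such as Saa3 and Orm3 in the sham groups rest on few counts.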
